A study of Triticum aestivum with 14 samples.

Results

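Accessible chromatin regions (ACRs) of the axillary bud and the shoot apex of unvernalized wheat were compared. An ACR that overlapped an ACR of the other tissue by 1 bp or more was called common, and the rest were called bud-side or apex-side. The axillary bud list held 175599 ACRs and the shoot apex list 132696, together 308295 of the 892288 ACRs in the 6 lists of the series. All ACRs of both lists were used, on 21 chromosomes.

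Both tissues came from the winter wheat cultivar AK58, from plants grown for 2 weeks at 22°C by day (16 h) and 19°C by night (8 h), with no cold treatment. The labels name 2 samples per tissue, but 1 list was given per tissue, and the sources do not state whether it rests on 1 sample or on both. The remaining 4 lists were leaf under the same growth conditions, and vernalized leaf, axillary bud and shoot apex after 1 month at 4°C and 1 day back in the greenhouse. The study's figure legends place the cold after the same 2 weeks of growth. Vernalized plants were therefore older, and cold and age cannot be told apart. A single list stands for each group, so spread between replicates is unknown, nothing was tested, and each difference below is a difference between 2 lists.

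Axillary buds form in the axils of leaves and carry meristems that can grow out as tillers. The shoot apex carries the apical meristem, which makes leaves and, after the floral transition, the spike. Dissected pieces of either kind hold young leaf and stem tissue as well as meristem. In ATAC-seq the transposase Tn5 cuts and tags open DNA, so stretches dense in Tn5 insertions mark promoters, enhancers and other sites free of packed nucleosomes. Bread wheat is an allohexaploid with an A, a B and a D sub-genome, and its genes lie more densely toward the chromosome ends than around the centromeres. The tissue labels could not be checked against marker genes, since no genes were assigned to ACRs here.

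At an overlap of 1 bp, more of the apex list than of the bud list was common. Of the shoot apex ACRs, 101560 were common (76.5%, 95% Wilson interval 76.3 to 76.8) and 31136 were apex-side, so that 23.5% of all apex ACRs had no bud ACR. Of the axillary bud ACRs, 85591 were common (48.7%, 48.5 to 49.0) and 90008 were bud-side, so that 51.3% of all bud ACRs had no apex ACR. Such intervals cover counting error alone, and ACRs that lie side by side are not independent draws. There were more bud-side than apex-side ACRs on all 21 chromosomes. With the bud list cut to its widest 132696 ACRs, as many as in the apex list, 58.4% of bud and 71.0% of apex ACRs were common, and with an overlap of 50% of both ACRs 25.1% and 33.2%.

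**Figure D1:**
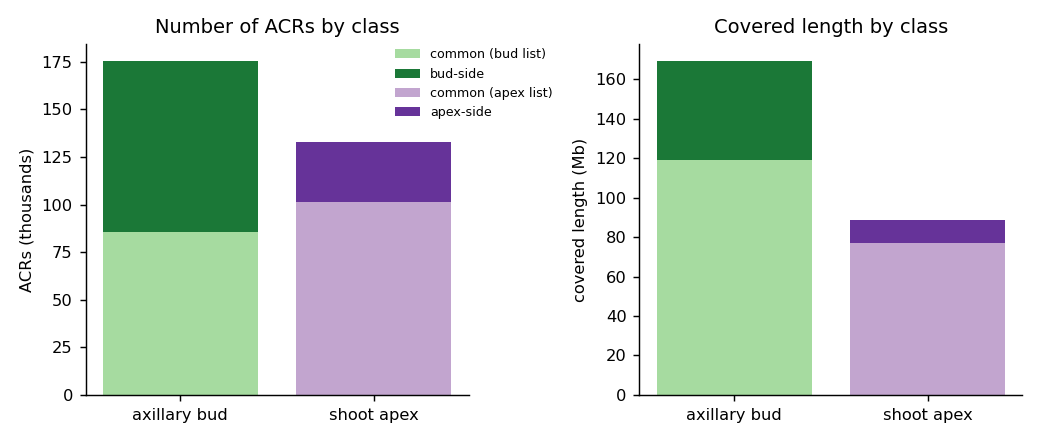
Stacked bars give the number of ACRs (left) and the length they cover (Mb, right) in each list, split into common ACRs (pale) and those of 1 tissue alone (dark). Bud-side ACRs were 51.3% of the bud list by number and 29.8% by covered length, and apex-side ACRs were 23.5% and 12.8% of the apex list.

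The side-only classes weighed less by length than by number. Bud-side ACRs covered 50.4 Mb, 29.8% of the bud list's length, and apex-side ACRs covered 11.3 Mb, 12.8% of the apex list's length. The union of both lists spanned 188 Mb. Of it, 36.9% was accessible in both tissues, 26.2% was bud sequence flanking the shared part of common ACRs, 26.8% lay in bud-side ACRs and 6.02% in apex-side ACRs. The part of common ACRs that reached beyond the bud ACR in shoot apex made up 4.11%. So the bud list differed from the apex list about as much by wider common ACRs as by separate ones. The overlap of the 2 unvernalized meristem-bearing tissues, as shared over union length (Jaccard index), was 0.369. It was 0.338 for leaf with axillary bud, 0.327 for leaf with shoot apex and 0.529 for the vernalized bud with the vernalized apex.

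The 2 lists differed in make as well as in tissue. A width of 150 bp plus whole steps of 100 bp, the widths that whole bins of the authors' peak filter would give, was found in 94.6% of bud ACRs and in 12.9% of apex ACRs. Within a list the classes were close in this respect. The share was 94.9% in common and 94.4% in bud-side ACRs, and 13.1% in common and 12.4% in apex-side ACRs. The study also lists more mapped reads for both axillary bud libraries than for both shoot apex libraries. The lists carry no read counts, so the part of depth or of peak filtering in the results below was not tested, and tissue and list make cannot be told apart.

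Side-only ACRs were narrow in both tissues. In axillary bud the median width was 1050 bp for common ACRs (quartiles 650 and 1750 bp) and 450 bp for bud-side ACRs (250 and 650 bp). In shoot apex it was 535 bp for common ACRs (305 and 949 bp) and 285 bp for apex-side ACRs (233 and 406 bp). The smallest width in either list was 201 bp, so a large part of the apex-side class sat near the lower limit, with 54.1% under 300 bp against 24.1% of the common apex ACRs. In the bud list 31.9% of bud-side and 6.99% of common ACRs were under 300 bp. ACRs of 1 kb or more made up 12.4% of the bud-side class (11188) but only 2.18% of the apex-side class (678).

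The share of common ACRs rose with width in both lists. Of bud ACRs of 201 to 300 bp, 17.2% (16.8 to 17.6) were common, of those of 501 to 750 bp 43.2%, of those of 1001 to 1500 bp 71.7%, and of those over 3000 bp 97.2% (96.8 to 97.6). Of apex ACRs the shares in the same width ranges were 59.3% (58.8 to 59.7), 85.1%, 96.1% and 99.4% (98.9 to 99.7). In every width range apex ACRs were matched more often than bud ACRs. Of 1806 apex ACRs over 3000 bp, 1795 met a bud ACR.

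**Figure D2:**
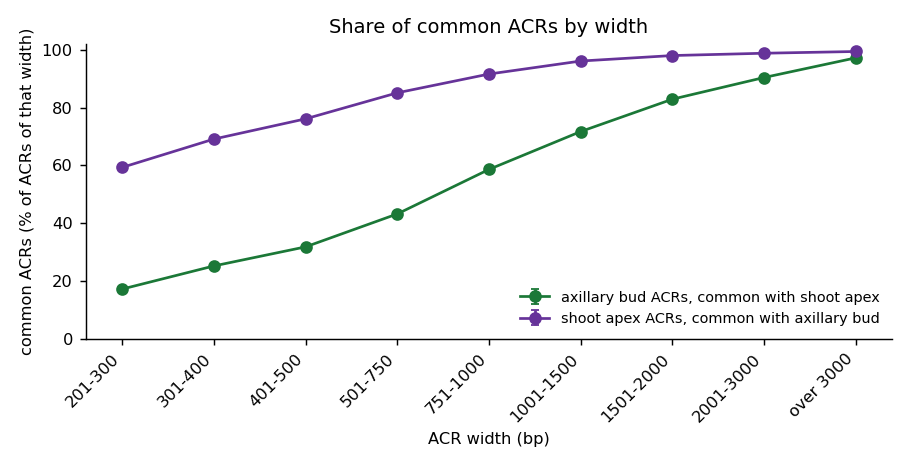
Points give the share of common ACRs (%) among ACRs of each width range (bp) in the bud list (green) and the apex list (purple), with 95% Wilson intervals. Both lines rise, from 17.2% to 97.2% in the bud list and from 59.3% to 99.4% in the apex list.

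Most common ACRs met as simple pairs. Overlapping ACRs of both lists joined into 83559 common regions, of which 68176 (81.6%) held 1 bud and 1 apex ACR. In 13486 regions (16.1%) a single bud ACR spanned several apex ACRs, 30795 in all. The opposite, a single apex ACR over several bud ACRs, was seen in 1402 regions (1.68%), and 495 held several of both. The most divided bud ACR lay on chromosome 3D (3D:496729444-496744793, 15350 bp) and covered 8 apex ACRs. The most divided apex ACR lay on 1A (1A:563285048-563295994, 10947 bp) and covered 7 bud ACRs. Positions are 1-based and refer to IWGSC RefSeq v1.0.

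Within the 68176 simple pairs the bud ACR was the wider in 78.3% and the apex ACR in 20.2%. The median width was 950 bp in bud and 547 bp in apex, and the width ratio of bud over apex had a median of 1.46 (quartiles 1.04 and 2.39). The bud ACR was at least 2 times as wide in 32.9% of pairs, and the apex ACR in 3.14%. In 54.8% of pairs the apex ACR lay wholly inside the bud ACR, and in 8.70% the bud ACR lay inside the apex ACR. Over all pairs the median extension of the bud ACR was 100 bp at the lower-coordinate and at the higher-coordinate end. Extension was not compared between the ends of the same pair, and the centres of the 2 ACRs lay a median of 126 bp apart.

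Single pairs departed far from that median. The 2 pairs with the largest ratio toward bud were on 2A, where a bud ACR of 5850 bp (2A:693289344-693295193) held an apex ACR of 214 bp (ratio 27.3), and on 2D, where a bud ACR of 5250 bp (2D:417622431-417627680) held one of 203 bp (ratio 25.9). The 2 with the largest ratio toward apex were on 7D, where an apex ACR of 3135 bp (7D:11911132-11914266) held a bud ACR of 250 bp (ratio of apex over bud 12.5). On 3A an apex ACR of 4426 bp (3A:720839191-720843616) held a bud ACR of 407 bp (ratio 10.9). Each of these 4 pairs was shared over the whole of its narrower member, so they are common by the rule although most of the wider ACR was called in 1 tissue alone.

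The 1 bp threshold itself decided few calls. In the bud list 520 common ACRs (0.608%) shared 50 bp or less with the apex list, and 556 bud-side ACRs (0.618%) lay within 50 bp of an apex ACR. In the apex list 740 common ACRs (0.729%) shared 50 bp or less, and 707 apex-side ACRs (2.27%) lay within 50 bp of a bud ACR. The median width of these borderline ACRs was 350 bp in bud on both sides of the threshold, and 250 and 277 bp in apex. A stricter rule mattered more, since asking for 50% of the ACR's own length left 31.0% of bud and 71.6% of apex ACRs common.

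The classes spread almost evenly over the 3 sub-genomes in number. Of the 90008 bud-side ACRs, sub-genome A carried 33.8%, B 32.3% and D 34.0%. Of the 31136 apex-side ACRs, A carried 31.8% (interval 31.2 to 32.3), B 34.0% (33.5 to 34.5) and D 34.2% (33.7 to 34.8). The D share thus differed by 0.273 percentage points (-0.337 to 0.886), which is within counting error at this overlap rule. Its sign changed when covered length replaced number, and other settings moved it either way beyond counting error. Because D is the shortest sub-genome, with 28.1% of the spanned length, it was the densest for each class. Bud-side ACRs numbered 7.74 per Mb on D, 6.16 on A and 5.61 on B, and apex-side ACRs 2.70, 2.00 and 2.04 per Mb.

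The higher B share of apex-side ACRs came with a single chromosome. Chromosome 6B held 2037 apex-side ACRs, the most of any chromosome. With homoeologous group 6 left out, 31.9% of apex-side and 32.0% of bud-side ACRs lay on B, and the D shares were 35.2% (34.6 to 35.8) and 33.9% (33.5 to 34.2). Leaving out that group was chosen after its values were seen.

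Over the 21 chromosomes the share of bud ACRs that were bud-side ran from 45.8% on 6B to 53.0% on 3B, with a median of 51.9%, and the share of apex ACRs that were apex-side from 20.6% on 4D to 28.9% on 6B, with a median of 23.3%. Chromosome 6B stood apart on both measures. The next lowest bud-side share was 49.4%, and the next highest apex-side share 25.4%. There were 1.81 bud-side ACRs per apex-side ACR on 6B, against 2.66 to 3.27 on the others. On the whole chromosome there were 1.14 bud ACRs per apex ACR on 6B and 1.27 to 1.39 elsewhere.

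Chromosome 6B was outside the range of the others near its ends and, for apex-side ACRs, in its middle. In the outermost 10% of length at either end, here called the outer zones, 6B had 0.851 bud ACRs per apex ACR, and the other 20 chromosomes 0.929 to 1.18. Its apex-side share there was 35.5% against 23.9% to 33.4%. In the middle 30% its ratio of 1.64 lay within the range of the others, 1.50 to 2.11, but its apex-side share of 22.1% was above theirs, 14.3% to 20.5%. After vernalization 6B no longer stood out, with 1.15 vernalized bud ACRs per vernalized apex ACR against 1.08 to 1.20. Chromosome 6B carried 5.32% of the unvernalized apex list and 4.51% to 4.72% of the other 5 lists.

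The classes differed in their place on the chromosome. Of apex-side ACRs 60.3% (59.8 to 60.9) lay in the outer zones, which together make up 20% of the length. Of bud-side ACRs 27.8% (27.5 to 28.1) lay there, a difference of 32.5 percentage points, which was 15.5 points when the overlap had to reach 50% of both ACRs. Common ACRs fell between, with 42.9% in the bud list and 42.6% in the apex list. The apex-side share was the higher on all 21 chromosomes, where it ran from 48.3% (5A) to 71.2% (7D) and the bud-side share from 21.6% (7B) to 35.6% (4D), so the 2 ranges did not overlap.

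**Figure D3:**
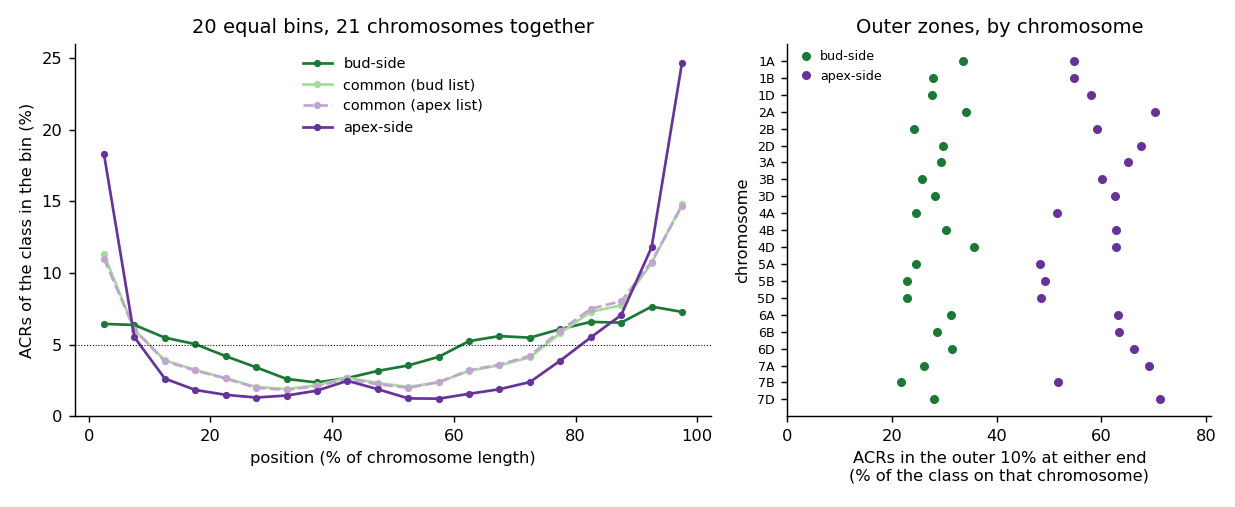
Left, the percentage of each class in 20 equal bins along the chromosome (position in % of length, 21 chromosomes together), with the dotted line at the 5% an even spread would give. Right, the share (%) of bud-side (green) and apex-side (purple) ACRs in the outer zones of each chromosome. The last bin holds 24.7% of apex-side and 7.29% of bud-side ACRs, and on every chromosome the purple point lies right of the green one.

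The concentration was steepest in the terminal bins. Of apex-side ACRs, 18.3% lay in the first and 24.7% in the last of 20 equal bins, and 1.23% in the sparsest bin, the 12th. Bud-side ACRs ranged from 2.36% (8th bin) to 7.66% (19th bin), with 6.45% in the first and 7.29% in the last. The median distance to the nearer chromosome end was 44.7 Mb for apex-side ACRs, 86.4 Mb for common bud ACRs, 86.9 Mb for common apex ACRs and 129 Mb for bud-side ACRs. Within 10 Mb of an end lay 16.5% of apex-side, 8.68% of common apex, 8.85% of common bud and 4.09% of bud-side ACRs.

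Seen from the lists, the bud's lead in number vanished at the ends. In the first and last bins the bud list had 0.916 and 0.852 ACRs per apex ACR, whereas in the 12th bin it had 2.06. Of the 42 terminal bins of the 21 chromosomes, 34 held more apex than bud ACRs and 26 held more apex-side than bud-side ACRs. Of the 378 other bins, 8 and 3 did. In the outer zones 40.5% (40.1 to 40.9) of bud ACRs were bud-side and 30.3% (29.9 to 30.6) of apex ACRs apex-side. In the middle 30% the shares were 60.0% (59.5 to 60.6) and 17.7% (17.2 to 18.3). A smaller rise of the apex-side share appeared inside the chromosome, at 22.5% in the 9th bin against 13.0% in the 13th, where the bud-side share was 51.0% and 63.5%.

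Bud-side ACRs had the largest interior share of the classes, yet less than an even spread over length would give. The middle 30% of length held 21.1% of bud-side, 14.8% of common bud, 14.5% of common apex and 10.2% of apex-side ACRs. Of all bud ACRs 18.1% lay there, and of all apex ACRs 13.5%. The difference of 10.9 points between the side-only classes was 6.24 points with the interior set as the stretch of each chromosome poorest in leaf ACRs, and 6.07 points with an overlap of 50% of both ACRs. The B sub-genome had the largest interior share of bud-side ACRs, 24.7%, against 20.4% on D and 18.4% on A. For apex-side ACRs the 3 values were close, at 10.9%, 10.4% and 9.18%. The outer zones held 62.5% of the apex-side ACRs of D, 60.8% of those of A and 57.6% of those of B, and 28.8%, 28.9% and 25.6% of the bud-side ACRs, so the contrast was present in each sub-genome.

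Width and position went opposite ways in the side-only classes. Of apex-side ACRs of 201 to 300 bp, 57.0% (56.3 to 57.8) lay in the outer zones, and of those over 1 kb 85.2% (82.3 to 87.7, n = 676). Of bud-side ACRs the shares were 32.0% (31.5 to 32.6) and 22.0% (21.2 to 22.7, n = 11187). Among common ACRs, the outer share rose with width in the apex list, from 37.9% to 51.7%, and fell with width in the bud list, from 57.2% to 40.2%. The contrast between apex-side and bud-side ACRs was therefore present at each width, and was widest for the widest ACRs. The median width of apex-side ACRs was 296 bp in the outer zones and 268 bp in the middle 30%. For bud-side ACRs it was larger in the middle, at 450 bp against 350 bp in the outer zones.

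Each class, common regions included, followed itself more often than its share of all regions. Along the chromosome, the joined common regions, bud-side and apex-side ACRs formed 204703 regions, of which 44.0% were bud-side, 15.2% apex-side and 40.8% common. After an apex-side ACR the next region was apex-side in 28.8% (28.3 to 29.3), 1.90 times the class's share of all regions. After a bud-side ACR the next was bud-side in 52.6% (52.3 to 53.0), 1.20 times its share. The apex-side minus the bud-side value was -23.8 points, and -6.48 points with the bud list cut to the length of the apex list. Class size enters this difference, since the bud-side class is the larger. Relative to its share of all regions, the apex-side class followed itself more often than the bud-side class did. Bud-side and apex-side ACRs followed each other less often than their shares, since 10.2% of the regions after a bud-side ACR were apex-side (0.668 times the share) and 29.4% of those after an apex-side ACR were bud-side (0.670 times). Common regions were followed by apex-side ACRs in 15.6% of cases, close to the class's share, and by common regions in 44.4%, 1.09 times their share. These ratios include the difference in position between the classes, and no test was made of clustering beyond it.

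**Figure D4:**
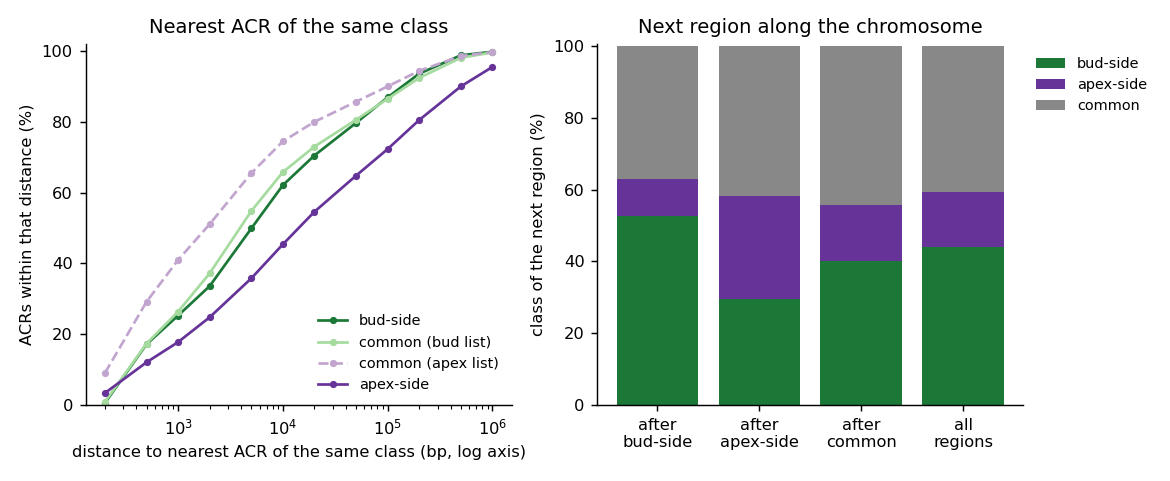
Left, the percentage of ACRs of each class whose nearest ACR of the same class lies within the distance on the log axis (bp). Right, the class of the next region along the chromosome (%) after a bud-side, apex-side or common region, beside the make-up of all regions. Apex-side ACRs were the farthest apart, yet 28.8% of the regions after one were apex-side against 15.2% of all regions.

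Apex-side ACRs were few and so lay far apart, but close to ACRs of either list. The median distance to the nearest ACR of the same class was 13.9 kb for apex-side, 5.02 kb for bud-side, 3.88 kb for common bud and 1.84 kb for common apex ACRs. The nearest bud ACR lay a median of 1.91 kb from an apex-side ACR, and 76.1% had one within 10 kb. From bud-side ACRs the nearest apex ACR was 6.58 kb away, 56.6% had one within 10 kb, and 18.9% had none within 100 kb (5.20% for apex-side ACRs). The bud list is also the longer one. Within 1 kb of the other list lay 36.6% of apex-side and 17.8% of bud-side ACRs, so more of the apex-side class was placed beside an accessible site of the other tissue.

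Joining regions up to 10 kb apart gave 78945 islands, of which 33269 were single regions. Islands of several regions were mostly mixed (32597), while 8051 held only bud-side, 863 only apex-side and 4165 only common regions. Of apex-side ACRs 67.7% shared an island with a common region and 14.5% were alone. Of bud-side ACRs the shares were 54.7% and 18.5%.

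Runs of consecutive regions of 1 class were short, with a mean of 2.11 for bud-side, 1.40 for apex-side and 1.80 for common regions. Runs of 10 or more held 4.96% of bud-side and 2.63% of apex-side ACRs. Run length also depends on class size, with 44.0% of all regions bud-side and 15.2% apex-side. The longest bud-side run had 25 ACRs over 0.522 Mb of 6A (6A:445243357-445764866), and the longest common run 18 regions over 0.382 Mb of 2D (2D:606711047-607093463). The longest apex-side run, of 69 ACRs over 0.222 Mb of 5B (5B:691172228-691394283), was longer than either.

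In windows of 1 Mb, apex-side ACRs were spread less evenly than bud-side ACRs. Of the 14074 windows 42.1% held none, against 8.78% for bud-side ACRs. The empty share also depends on class size, with a mean of 2.21 apex-side and 6.40 bud-side ACRs per window. The fullest 141 windows held 12.9% of apex-side, 4.15% of bud-side, 6.87% of common bud and 6.99% of common apex ACRs. The variance over windows was 8.31 times the mean for apex-side, 4.14 times for bud-side, 8.07 times for common bud ACRs, and it was highest for common apex ACRs. More bud-side than apex-side ACRs were found in 11187 windows and the reverse in 1311.

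The 3 windows with the most apex-side ACRs all lay in the outer zones, 21.6, 1.98 and 2.50 Mb from a chromosome end. They were 5B:691000001-692000000 with 130 apex-side and 0 bud-side ACRs, 3D:613000001-614000000 with 70 and 16, and 2A:2000001-3000000 with 57 and 19. The 5B window also held 98 leaf and 120 vernalized leaf ACRs, but 50 in vernalized bud and 10 in vernalized apex, so it was accessible in leaf and sparse in the vernalized apex. The 3D and 2A windows held 91 and 78 vernalized bud ACRs and 85 and 59 vernalized apex ACRs. The fullest bud-side windows were 2D:13000001-14000000, 7D:53000001-54000000 and 4A:590000001-591000000, with 42, 42 and 38 bud-side and 23, 6 and 2 apex-side ACRs. Those 3 windows lay 13.5, 53.5 and 154 Mb from a chromosome end, so the 2D and 7D windows were in the outer zones as well. They were about equally full in vernalized bud (112, 54 and 55 ACRs) and vernalized apex (103, 51 and 52).

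The vernalized lists show whether a call in 1 tissue alone came back in the same tissue after cold, in plants that were also older. Of all bud ACRs, 76.4% overlapped a vernalized bud ACR and 63.6% a vernalized apex ACR. The bud-side class was below both, with 58.6% (58.3 to 59.0) and 42.0% (41.7 to 42.3), and common bud ACRs were above, with 81318 of 85591 in the vernalized bud and 86.3% in the vernalized apex. Of all apex ACRs, 78.3% overlapped a vernalized bud ACR and 67.5% a vernalized apex ACR. The apex-side class had 29.6% (29.1 to 30.1) and 20.3% (19.8 to 20.7), and common apex ACRs had 93.2% and 81.9%. Apex-side ACRs were thus found again more often in the vernalized bud than in the vernalized apex, on 21 of 21 chromosomes, by 9.29 percentage points. For bud-side ACRs the vernalized bud also led on 21 of 21 chromosomes, by 16.7 points. It led as well among all ACRs and among common ACRs of either list, so such a lead was not particular to the side-only classes.

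Taken by both vernalized lists at once, 24.2% (23.9 to 24.5) of bud-side ACRs were called in the vernalized bud alone, 7.56% in the vernalized apex alone, 34.4% in both and 33.8% in neither. Over all bud ACRs these shares were 17.4%, 4.63%, 59.0% and 19.0%. Of apex-side ACRs 7.11% (6.83 to 7.40) were called in the vernalized apex alone, 16.4% (16.0 to 16.8) in the vernalized bud alone, 13.2% in both and 63.3% (62.8 to 63.9) in neither. Over all apex ACRs 3.18% were in the vernalized apex alone, 14.0% in the vernalized bud alone, 64.3% in both and 18.5% in neither. Neither list held 3.43% of common bud and 4.78% of common apex ACRs. The vernalized bud list is the longer of the pair (174089 against 154639 ACRs), and with it cut to its widest 154639 ACRs the lead of the vernalized bud was 5.61 points for apex-side and 8.35 points for bud-side ACRs. Where the overlap had to reach 50% of both ACRs, in the call of the class as well, the apex-side lead turned to -3.63 points, so its direction depends on the overlap asked for.

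Among ACRs called in exactly 1 vernalized list, the apex-side class leaned least to the vernalized bud. Of such apex-side ACRs 69.8% (68.7 to 70.8, n = 7319) were in the vernalized bud, of bud-side ACRs 76.2% (75.7 to 76.7, n = 28599), of common apex ACRs 87.0% and of common bud ACRs 86.8%. The apex-side class was thus lowest, by 6.45 points from the bud-side class, but in each class the vernalized bud held the majority.

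**Figure D5:**
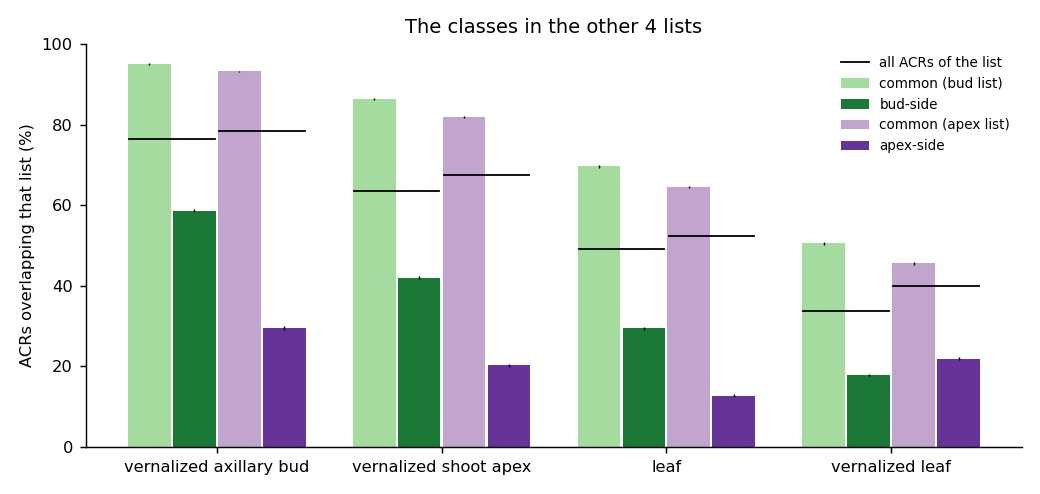
Bars give the share (%) of each class that overlaps an ACR of the list named below, with 95% Wilson intervals, and black lines give all ACRs of the bud list (left pair) or the apex list (right pair). Side-only classes lie below and common classes above the lines, and apex-side ACRs reach 29.6% in vernalized bud, 20.3% in vernalized apex, 12.7% in leaf and 21.9% in vernalized leaf.

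Recurrence depended on width and position. Of apex-side ACRs of 201 to 300 bp, 22.5% were found in the vernalized bud and 15.8% in the vernalized apex, and of those over 1 kb 71.0% and 46.2%. Of bud-side ACRs the values were 40.7% and 27.0% for the narrow and 85.2% and 68.8% for the wide ones. At each of the 4 widths the bud-side class recurred more than the apex-side class in both vernalized lists. In the middle 30% of the chromosome 75.0% of apex-side ACRs were in neither vernalized list, against 60.5% in the outer zones. For bud-side ACRs the values were 37.8% and 30.9%.

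Leaf, which carries no shoot meristem once expanded, gave a further reference. Of all bud ACRs 49.0% overlapped a leaf ACR and 33.8% a vernalized leaf ACR, and of all apex ACRs 52.4% and 40.0%. Bud-side ACRs had 29.4% and 17.8%. Apex-side ACRs had 12.7% (12.4 to 13.1) in leaf and 21.9% (21.5 to 22.4) in vernalized leaf, the only class of the 4 that was found more often in vernalized leaf. Common ACRs reached into leaf far more, with 69.6% of common bud and 64.5% of common apex ACRs. ACRs called in none of the other 4 lists made up 47.8% of the apex-side class (14874), 26.3% of the bud-side class (23710), 2.16% of common bud and 3.10% of common apex ACRs. Over the whole lists the share was 14.6% of bud and 13.6% of apex ACRs.

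The same overlaps give the ACRs that were called again in their own tissue's vernalized list and in no leaf list. A site not called in leaf may still be open there, so these sets were not shown to be limited to meristem-bearing tissue. Of common bud ACRs 21.9% (18702) recurred in the vernalized bud and were absent from both leaf lists, and of common apex ACRs 19.9% (20249) recurred in the vernalized apex with no leaf ACR. Of bud-side ACRs 32.9% (29608) recurred in the vernalized bud with no leaf ACR, and of apex-side ACRs 14.3% (4466) in the vernalized apex with no leaf ACR. All bud ACRs had 27.5% and all apex ACRs 18.6% by the same count, so the apex-side class was below its list and the bud-side class above. Bud-side ACRs nevertheless recurred less than all bud ACRs in the vernalized bud (58.6% against 76.4%). They also overlapped a leaf list less often (35.1% against 54.6%), so their higher value does not mean stronger recurrence. The bud and apex counts rest on vernalized lists of different length and make.

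The widest side-only ACRs with no ACR of the other tissue within 1 kb show how varied these calls are. The widest bud-side ACR of this kind spanned 7550 bp of 2D (2D:622312618-622320167). Of its length 550 bp were covered in the vernalized bud, 818 bp in leaf and 0 bp in the other two lists. The second spanned 6350 bp of 7A (7A:653695718-653702067), with 600 bp covered in the vernalized bud, 484 bp in the vernalized apex, 326 bp in leaf and 0 bp in vernalized leaf. The third spanned 6150 bp of 6B (6B:20742949-20749098), and there the vernalized apex covered 5266 bp and the vernalized bud 1350 bp, so that after cold it was mainly an apex call. Leaf covered 3072 bp of it and vernalized leaf 1947 bp.

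The widest apex-side ACR of this kind, 5105 bp of 1B (1B:683095057-683100161), was covered in none of the other 4 lists, and the nearest bud ACR lay 27134 bp away. The second, 4687 bp of 2A (2A:11911079-11915765), was covered over all 4687 bp in the vernalized apex and over 3950 bp in the vernalized bud, with 642 bp in leaf and 0 bp in vernalized leaf. The third, 4132 bp of 2A (2A:12836288-12840419), had 0 bp in the vernalized apex, 2650 bp in the vernalized bud, 3188 bp in leaf and 3681 bp in vernalized leaf. These 3 lay 6.75, 11.9 and 12.8 Mb from a chromosome end, and the 3 bud-side ACRs 29.4, 83.0 and 20.7 Mb. By share of length, the bud-side ACRs of 2D and 6B were in the outer zones as well. The genes next to these sites were not analysed here.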

How the data were processed

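ATAC-seq libraries of 6 wheat tissue and condition groups, named by the sample labels, are represented by 1 ACR list each, and input is not analysed here. Following their methods, the authors cleaned reads with fastp 0.21.0, aligned them to IWGSC RefSeq v1.0 with Bowtie2 2.3.5.1, filtered with SAMtools 1.3.1, removed duplicates with Picard 2.16.0 and called peaks with MACS2 2.2.6 (tool versions from the submitters' processing notes). They cut peaks into overlapping 150 bp bins, kept bins dense in Tn5 insertions, joined close bins with bedtools and dropped peaks seen in input. The deposited columns are chromosome, start and end, with no count or score, so no depth stands behind a single ACR. The study lists mapped reads per library, which were compared between bud and apex above but entered no calculation.

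ACRs were used as deposited, with Python 3.11.15, numpy 2.4.6, scipy 1.17.1 and matplotlib 3.10.9. The interval functions were checked on simulated data. An ACR was placed by its centre, and the last ACR end in any list stood for chromosome length. Intervals of shares are Wilson's at 95%, and those of differences Newcombe's.

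The classes, readouts and named sites were chosen with earlier results of these data known. Named were, per class, the 3 widest side-only ACRs over 1 kb from the other tissue, the 3 fullest windows of 1 Mb, the longest run and the chromosomes with the highest and lowest share, and the 2 simple pairs with the largest width ratio each way. Alternatives were 3 other overlap rules, a width minimum of 500 bp, lists of equal length, covered length, 5% ends, an interior set by leaf ACRs and neighbours within 10 kb. Genes and sequences were not analysed here, since the only gene table given is of another assembly.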

Additional observations from a re-analysis of the deposited data

How the results depend on the processing

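Of 82 values recomputed under alternatives, 15 stayed within the counting interval of the reported value. Of the 46 that were signed differences 5 reversed, among them 4 of the 8 for the D sub-genome. Shares have no sign to reverse. The share of bud ACRs common with apex and of apex ACRs common with bud became 50.2% and 78.9% with ACRs up to 200 bp apart counted as common, 31.0% and 71.6% with 50% of the ACR's own length, 25.1% and 33.2% with a reciprocal 50%, 43.5% and 85.0% with ACRs of at least 500 bp, and 58.4% and 71.0% with the bud list cut to the length of the apex list.

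The difference in outer-zone share between apex-side and bud-side ACRs was, in the same order, 34.2, 30.1, 15.5, 39.9 and 33.6 percentage points. It was 38.2 points by covered length and 29.3 points for 5% of the length at each end. Of the alternatives added after the data were seen, side-only ACRs over 1 kb from the other list gave 38.7 points, and leaving out the 1% of windows fullest in each side-only class gave 28.0 points.

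The D sub-genome difference reversed to -1.12 points (-2.17 to -0.06) for ACRs of at least 500 bp and -0.788 by covered length. It was -0.0571 over 1 kb from the other list and -0.818 (-1.46 to -0.176) without the fullest windows. With the bud list cut it was 1.14 (0.527 to 1.76), and with a reciprocal 50% 0.673 (0.268 to 1.08). Some intervals thus lay wholly above and others wholly below no difference, so the sign depends on the setting. Its cause was not tested.

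The share of bud-side ACRs called in the vernalized bud alone was 27.4% with 50% of the ACR, 25.9% with a reciprocal 50%, 25.4% from 500 bp, 24.7% with the bud list cut, 23.5% by covered length, 23.6% over 1 kb from the other list and 19.4% with the vernalized bud list cut. The share of apex-side ACRs called in the vernalized apex alone was 7.64% with 200 bp joined, 6.52% with 50% of the ACR, 13.7% with a reciprocal 50%, 7.98% from 500 bp, 6.32% over 1 kb from the other list and 8.50% with the vernalized bud list cut. The lead of the vernalized bud among apex-side ACRs reversed to -3.63 points with a reciprocal 50%.

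No paired analysis was possible because each group has 1 list and no result comes from a test. With positions alone, a site just under the authors' threshold in 1 tissue cannot be told from a closed one, and differences in depth, bin filtering and tissue cannot be told apart.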

Other observations

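In each class, overlap with vernalized leaf was more frequent in the middle of the chromosome than near its ends. In the middle 30% of length 34.0% of apex-side ACRs overlapped a vernalized leaf ACR and 16.3% a leaf ACR, and in the outer zones (the outermost 10% of length at either end) 19.9% and 12.6%. For bud-side ACRs these shares were 22.9% and 35.3% in the middle and 14.4% and 23.8% in the outer zones. They too rose inward, but leaf led vernalized leaf in both places. Common ACRs overlapped vernalized leaf in 61.6% (bud list) and 55.7% (apex list) in the middle. In the outer zones the values were 45.3% and 41.5%. Vernalized leaf was the only one of the other 4 lists to hold the ACR for 10.1% of apex-side ACRs (3160), against 1.99% of bud-side, 0.726% of common apex and 0.530% of common bud ACRs. The share of widths on the bin pattern was 12.9% in the apex list, 42.6% in vernalized leaf, 33.9% in leaf, 77.6% in vernalized apex, 94.6% in axillary bud and 95.6% in vernalized bud. The part of this difference in list make in the overlaps was not tested.

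Homoeologous groups differed little. The bud-side share of bud ACRs ran from 49.8% in group 6 to 52.4% in group 7, and the apex-side share of apex ACRs from 21.6% in group 4 to 25.1% in group 6. The share in group 6 comes with chromosome 6B, since 6A and 6D had apex-side shares of 22.2% and 22.8%.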
